A study of Mus musculus with 10 samples.

Results

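Tumour necrosis factor (TNF) and 9 receptors of its family were followed in the medial prefrontal cortex (mPFC) of mice: the ligand gene Tnf and the receptor genes Tnfrsf1a, Tnfrsf1b, Tnfrsf11a, Tnfrsf12a, Tnfrsf14, Tnfrsf21, Ltbr, Cd40 and Ngfr. These 10 genes were chosen by name, with earlier results of these data known, among the 78317 genes listed in the expression table. All 10 were found. Bulk RNA sequencing compared 5 libraries from WT mice injected with an adeno-associated virus (AAV) for overexpression of miR-130a-3p, a microRNA (numbers 13, 14, 15, 17 and 18) with 5 libraries from WT mice injected with a control AAV (numbers 3, 4, 5, 7 and 9). Each library came from a tissue punch 1 mm in diameter that held mixed cell types, and the comparison asked what the overexpressed microRNA did to the transcriptome. The promoter, serotype and cell target of the AAV, the time after injection and the age of the mice are not given in the sources used here. The labels do not state that each library came from a separate mouse, so p-values reflect library-to-library spread, which may be technical.

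TNF is made as a membrane-anchored trimer that a metalloprotease releases from the cell surface. Its receptors lack enzymatic activity and signal by recruiting adaptors: receptors with a death domain can engage caspases or necroptosis, and receptors with TRAF-binding tails lead mainly to NF-kB and MAP kinases. In brain, TNF comes largely from microglia and acts on glia, vessels and neurons, where it takes part in inflammation and in the scaling of synapses.

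The overexpressed microRNA is shown first because its seed sets the target sites that were searched in the 10 genes. Its mature sequence is given from RefSeq (GRCm38.p6, chr2:84741116-84741137, minus strand), with the seed at bases 2 to 8 in capitals.
miR-130a-3p: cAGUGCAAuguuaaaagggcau
A site was counted where the longest 3′ untranslated region (UTR) annotated in GENCODE M21 held TTGCACT or TGCACTA, on the strand of the transcript. Of the 10 genes, 2 held a site, and these sites are printed with the match in capitals.
Tnf: tctatttatatTTGCACTtattatttatt
Tnfrsf1b: ctaaggagcaaTTGCACTgtgtgctggac
The Tnf site began at base 429 of a 3′ UTR of 764 bases on chromosome 17, and 8.33% of 1657 UTRs of similar length held a site. That of Tnfrsf1b began at base 1331 of 2324 on chromosome 4, where 21.2% of 2462 UTRs of similar length held one. Over all tested genes with an annotated 3′ UTR, 2229 of 13308 (16.7%) held a site. Such a match is a description of the letters and not of binding. The 3′ UTRs of Tnfrsf1a, Tnfrsf11a, Tnfrsf12a, Tnfrsf14, Tnfrsf21, Ltbr, Cd40 and Ngfr, 311 to 3115 bases long, held neither string.

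Levels are in TPM, a transcript share per library that scales for gene length and keeps no record of depth. The Mir130a gene itself was listed at 0 TPM in all 10 libraries, as were all 2206 microRNA genes in the table, so these poly(A)-selected libraries do not check the overexpression. Of 15680 genes with a mean of at least 1 TPM, 1767 were lower (11.3%) and 343 were higher (2.19%) in miR-130a libraries at a limma Benjamini-Hochberg adjusted p of at most 0.05, and the median log2 fold change was −0.09. Higher genes made up 16.3% of these calls as deposited, 42.0% after median-ratio scaling and 50.6% after quantile normalization, which moved the median to 0.01 and 0.05. Mitochondrially encoded genes took 16.02% to 19.92% of the TPM in miR-130a libraries and 13.04% to 16.43% in control libraries. Excitatory neuron markers summed to 3540 to 4710 TPM in miR-130a libraries and 3230 to 6160 TPM in control libraries, and none of the 116 marker genes listed was at 0 in all libraries.

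Receptors of the family were lower in the cortex that received miR-130a. Of the 9 receptors tested, 5 fell and none rose: Tnfrsf1a, Tnfrsf1b, Ltbr, Tnfrsf12a and Tnfrsf14. In each of these 5, every miR-130a library lay below every control library, which held for 9.46% of all tested genes. The median log2 fold change of the 9 receptors was −0.92. Tnfrsf11a, Tnfrsf21, Cd40 and Ngfr did not pass the test, and Tnf lay under the level filter and was tested apart.

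**Figure D1:**
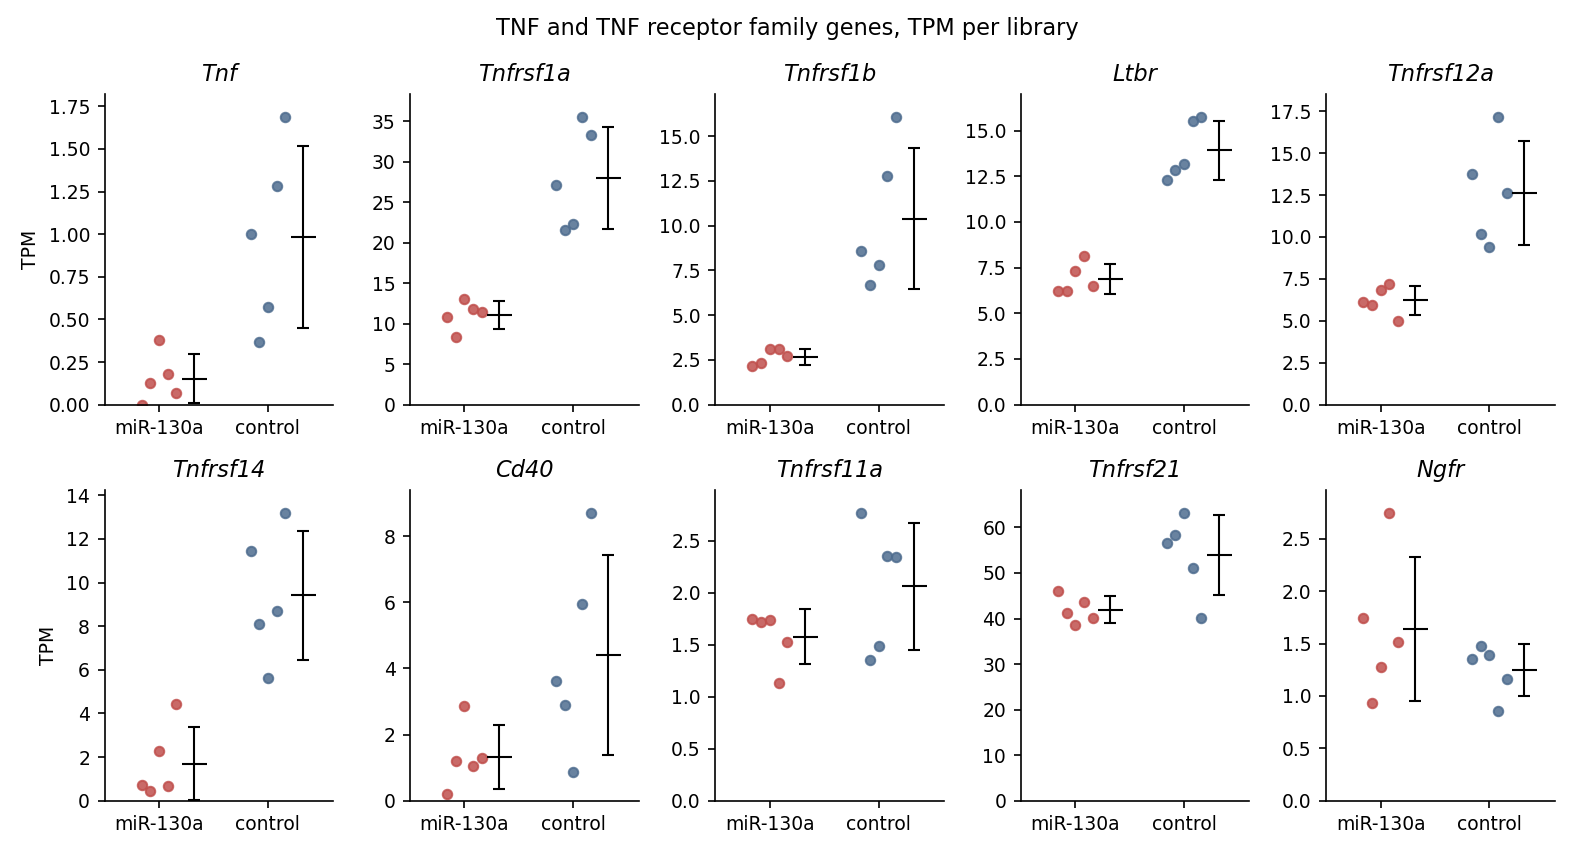
TPM of Tnf and the 9 receptors in each library, with miR-130a libraries on the left and control libraries on the right of each panel. Points are libraries, bars are means and whiskers are SD (n = 5 each). The points of Tnfrsf1a, Tnfrsf1b, Ltbr, Tnfrsf12a and Tnfrsf14 do not overlap between the groups.

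Tnf, the founding ligand of the family, was low in every library. It was listed at 0, 0.13, 0.38, 0.18 and 0.07 TPM in miR-130a libraries 13, 14, 15, 17 and 18, and at 1.0, 0.37, 0.57, 1.28 and 1.69 TPM in control libraries 3, 4, 5, 7 and 9. The groups overlapped by 1 pair of libraries, miR-130a library 15 and control library 4. The mean difference on the log2(TPM + 1) scale was −0.75 (2-sided exact permutation p = 0.0159; the smallest p that 5 against 5 libraries allow is 0.00794). With no level filter, Tnf entered the fit over 36601 genes with a limma adjusted p of 0.0546. With a filter of 0.5 TPM it entered a fit over 17840 genes and passed, with a limma adjusted p of 0.0324. It met that filter through the control libraries, with means of 0.152 TPM in miR-130a and 0.982 TPM in control libraries.

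Tnfrsf1a encodes the TNF receptor with a death domain that most cell types carry. It measured 10.8, 8.32, 13.03, 11.9 and 11.4 TPM in miR-130a libraries, against 27.2, 21.6, 22.3, 35.6 and 33.3 TPM in control libraries. The highest miR-130a library stood well below the lowest control library, and the log2 fold change was −1.25 (SE 0.16, 95% confidence interval −1.6 to −0.9, limma adjusted p = 0.00112). Tnfrsf1b encodes the other TNF receptor, which lacks a death domain, prefers membrane-bound TNF and is expressed mainly by immune and endothelial cells, microglia among them. Its libraries gave 2.15, 2.3, 3.1, 3.12 and 2.72 TPM after miR-130a, against 8.56, 6.7, 7.8, 12.8 and 16.1 TPM after the control virus. Here the groups again stood apart, control libraries 7 and 9 were the highest, and the log2 fold change was −1.57 (SE 0.21, adjusted p = 0.0013).

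Tnfrsf1b fell further than several of the other receptors. The differences of log2 values between receptors within each library were compared between the groups for all 36 pairs of tested receptors, and 18 pairs passed an exact permutation test after Benjamini-Hochberg adjustment. Relative to Ltbr, Tnfrsf12a and Tnfrsf21, the miR-130a minus control difference of Tnfrsf1b was −0.65, −0.68 and −1.23 (exact permutation adjusted p = 0.0204 for each). Each of these 3 pairs missed the threshold when miR-130a library 13 was left out. The pair with Tnfrsf21 also missed it without miR-130a library 14. Tnfrsf1b made up 16.6% to 21.7% of the summed TPM of both TNF receptors in miR-130a libraries and 23.6% to 32.6% in control libraries. The difference between Tnfrsf1a and Tnfrsf1b was 0.32 (exact permutation adjusted p = 0.0476) on this scale, which understates the change of lower genes, and 0.54 with a pseudocount of 0.1 (exact permutation adjusted p = 0.022). That pair missed the threshold in 12 of 17 alternatives, up to an adjusted p of 0.153. Without control libraries 7 and 9 none of the 36 pairs passed the exact permutation test, although 16 had an unadjusted p under 0.05.

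Ltbr, Tnfrsf12a and Tnfrsf14 signal through TRAF proteins. Ltbr, the receptor for lymphotoxins and LIGHT that feeds the noncanonical NF-kB route, had the smallest standard error of the receptors that fell: 6.24, 6.24, 7.3, 8.13 and 6.49 TPM in miR-130a libraries, against 12.3, 12.9, 13.2, 15.5 and 15.8 TPM in control libraries. The groups did not overlap, and the log2 fold change was −0.92 (SE 0.11, limma adjusted p = 0.000889). Tnfrsf12a, the receptor for the cytokine TWEAK that is induced by injury and growth factors, measured 6.11, 5.94, 6.83, 7.21 and 4.97 TPM in miR-130a libraries, against 13.7, 10.2, 9.43, 17.2 and 12.6 TPM in control libraries. All 5 miR-130a libraries were below all 5 control libraries, at a log2 fold change of −0.9 (SE 0.16, adjusted p = 0.00438). The change of Tnfrsf12a differed from that of Ltbr by 0.02 (exact permutation adjusted p = 0.857), between −0.05 and 0.1 in 17 alternatives.

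Tnfrsf14 encodes the herpesvirus entry mediator, which binds LIGHT and the inhibitory lymphocyte receptor BTLA. Its level was 0.7, 0.43, 2.26, 0.69 and 4.41 TPM in miR-130a libraries, against 11.5, 8.1, 5.61, 8.71 and 13.2 TPM in control libraries. Library 18 and, less so, library 15 were high within the miR-130a group, whose coefficient of variation was 98.9%, against 31.5% in the control group. Even so the groups did not overlap, and the log2 fold change of −2.1 had the widest standard error of the receptors that fell (0.35, limma adjusted p = 0.00363). Its change was not distinguished from that of Tnfrsf1b (difference 0.52, exact permutation adjusted p = 0.276).

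**Figure D2:**
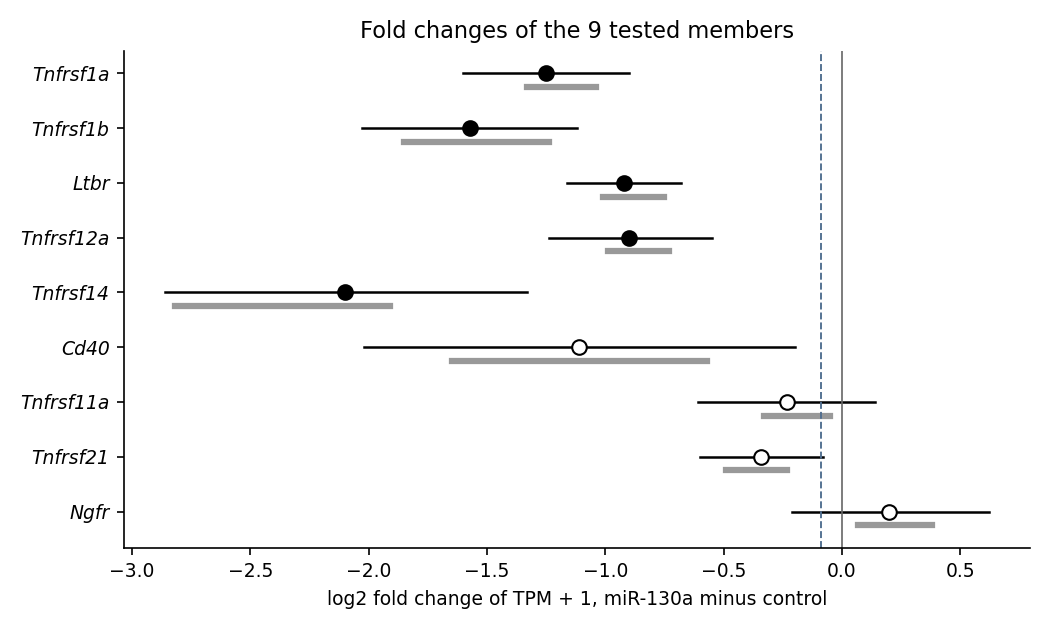
Log2 fold change (miR-130a minus control, limma on log2(TPM + 1)) of the 9 tested receptors. Black lines are 95% confidence intervals, grey bars span the 21 alternative settings, filled points passed the test and the dashed line marks the median of all tested genes at −0.09. The 5 receptors that fell keep their grey bars below 0, as do Tnfrsf11a, Tnfrsf21 and Cd40, which did not pass.

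Among the receptors that did not pass, the calls of Tnfrsf21 and Cd40 changed when 1 control library was left out. Tnfrsf21 encodes death receptor DR6, which is expressed by neurons and oligodendrocyte-lineage cells, and it was the most abundant receptor: 46.0, 41.3, 38.6, 43.6 and 40.1 TPM in miR-130a libraries, against 56.5, 58.4, 63.3, 51.1 and 40.2 TPM in control libraries. Control library 9 was the only one that overlapped the miR-130a libraries. The log2 fold change was −0.34 (confidence interval −0.6 to −0.08, limma adjusted p = 0.0794), and without control library 9 it was −0.44 (adjusted p = 0.00608). Cd40, the costimulatory receptor of antigen-presenting cells and microglia, had 0.2, 1.2, 2.87, 1.06 and 1.29 TPM in miR-130a libraries, against 3.62, 2.89, 0.87, 5.94 and 8.71 TPM in control libraries. Control library 5 lay below 4 of the miR-130a libraries. The log2 fold change was −1.11 (confidence interval −2.02 to −0.2, adjusted p = 0.101), with −1.44 (adjusted p = 0.0234) when control library 5 was left out and −0.57 (adjusted p = 0.345) when control libraries 7 and 9 were.

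Tnfrsf11a and Ngfr were low and overlapped between the groups. Tnfrsf11a encodes RANK, the receptor for RANKL, which is known for osteoclast formation and, in brain, for the control of body temperature. It averaged 1.57 ± 0.264 TPM in miR-130a libraries and 2.06 ± 0.611 TPM in control libraries (SD, n = 5 each), with a log2 fold change of −0.23 (confidence interval −0.61 to 0.14, limma adjusted p = 0.413). Ngfr, the neurotrophin receptor with a death domain, averaged 1.64 ± 0.688 TPM in miR-130a libraries and 1.25 ± 0.246 TPM in control libraries (SD, n = 5 each). It was the only receptor with a positive estimate, 0.2 (confidence interval −0.21 to 0.62, adjusted p = 0.532). The change of each of the 5 receptors that fell differed from that of Ngfr, by −2.3 for Tnfrsf14 to −1.1 for Tnfrsf12a (exact permutation adjusted p = 0.0204 for each).

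In both groups Tnfrsf21 had the highest level, followed by Tnfrsf1a, and neither range overlapped that of the next receptor. Below them, Ltbr and Tnfrsf12a overlapped each other in miR-130a libraries and stood above the rest, whereas in control libraries Ltbr, Tnfrsf12a, Tnfrsf1b and Tnfrsf14 began a chain of overlapping neighbours that ran on through Cd40, Tnfrsf11a and Ngfr to Tnf. The 9 receptors together summed to 68.3 to 79.6 TPM in miR-130a libraries and 124 to 150 TPM in control libraries. Tnfrsf21 took 50.1% to 60.8% of that sum in miR-130a libraries and 28.0% to 50.5% in control libraries.

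The promoters of 3 receptors are printed because they alone, of the 9 searched, held any of the motifs below. The RefSeq promoter table (GRCm38.p6, 250 bases before to 50 after the gene start) held 9 of the 10 genes, all but Cd40. It was searched on both strands for GAAANNGAAA, the interferon-stimulated response element, for TTCNNNGAA, the gamma-activated site, which reads alike on both strands, and for the NF-kB site. Matches are in capitals.
Tnfrsf1a, chr6:125349473-125349772, plus strand: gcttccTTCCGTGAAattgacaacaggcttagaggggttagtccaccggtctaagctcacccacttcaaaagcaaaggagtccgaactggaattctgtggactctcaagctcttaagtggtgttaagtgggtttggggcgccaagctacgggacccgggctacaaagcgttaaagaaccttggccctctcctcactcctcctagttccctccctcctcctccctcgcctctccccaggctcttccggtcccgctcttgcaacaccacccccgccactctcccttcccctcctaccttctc
Tnfrsf1b, chr4:145246821-145247120, minus strand: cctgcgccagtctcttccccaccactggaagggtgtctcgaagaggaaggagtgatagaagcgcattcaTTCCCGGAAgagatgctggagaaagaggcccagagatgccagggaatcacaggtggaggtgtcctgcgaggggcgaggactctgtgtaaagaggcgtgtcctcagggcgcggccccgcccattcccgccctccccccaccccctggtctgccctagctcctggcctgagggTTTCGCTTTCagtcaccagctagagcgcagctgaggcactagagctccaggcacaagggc
Tnfrsf14, chr4:154928028-154928327, minus strand: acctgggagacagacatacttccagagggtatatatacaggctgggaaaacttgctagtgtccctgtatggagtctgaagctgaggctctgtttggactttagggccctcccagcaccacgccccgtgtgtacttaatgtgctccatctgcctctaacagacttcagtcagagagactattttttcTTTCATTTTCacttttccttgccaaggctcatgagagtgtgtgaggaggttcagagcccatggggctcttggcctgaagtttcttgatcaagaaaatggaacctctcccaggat
The interferon-stimulated element was matched in Tnfrsf1b (starting at −10 from the gene start) and in Tnfrsf14 (at −64), and in 3.44% of 32851 promoters. A gamma-activated site was matched in Tnfrsf1a (at −244) and Tnfrsf1b (at −181), and in 8.3% of promoters. The NF-kB site, found in 4.51% of promoters, was matched in none of the 9. No motif overlapped another, and a match does not show that a factor binds there.

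The receptors that fell moved beside markers of microglia and reactive astrocytes. Over all tested genes, 11.3% were lower and 2.19% higher. Of 14 microglial markers tested, 12 were lower and none higher. The summed level of the microglial markers was 471 to 600 TPM in miR-130a libraries and 896 to 1560 TPM in control libraries. Among them, Tyrobp was lower, at 64.5 ± 8.34 TPM in miR-130a libraries and 171 ± 80.6 TPM in control libraries (SD, n = 5 each). Markers of reactive astrocytes (9 of 9 lower, 8 of them at 1 TPM or more in each group) summed to 127 to 258 TPM in miR-130a libraries and 469 to 978 TPM in control libraries, while those of astrocytes in general (1 of 10 lower) summed to 1830 to 2260 and 1760 to 2190 TPM in miR-130a and control libraries. Border myeloid and monocyte markers (3 of 7 lower) spanned 9.94 to 47.5 TPM in miR-130a libraries and 30.6 to 193 TPM in control libraries. T, NK and B cell markers (5 of 8 lower, and 3 of the 3 at 1 TPM or more in each group) spanned 2.67 to 13.4 TPM in miR-130a libraries and 14 to 98.2 TPM in control libraries. Control libraries 7 and 9 had the highest border myeloid and monocyte sums, 142 and 193 TPM. Their T, NK and B cell sums, 76 and 98.2 TPM, were also the highest. In control libraries 3, 4 and 5 these sums were at most 56.9 and 30.3 TPM. The border myeloid and monocyte sum of miR-130a library 15, 47.5 TPM, lay above those of control libraries 4 and 5 (30.6 and 33.1 TPM). Reactive astrocyte sums were likewise highest in control libraries 7 and 9 (894 and 978 TPM). Endothelial (7 of 10 lower) and mural or fibroblast markers (6 of 11 lower) summed to 220 to 267 and 132 to 191 TPM in miR-130a libraries, against 307 to 366 and 222 to 319 TPM in control libraries. Oligodendrocyte, precursor and excitatory neuron markers gave no call, and 2 of 8 inhibitory neuron markers were higher. Not all marker calls held in the 21 alternatives. Cd44 was lost in 14, Ms4a7 in 11, Cd3g and Atp1b2 in 10 each, Aif1 in 9, and Cldn5, Col1a2 and Vip in 8 each. Dcn and Plac8 were lost in 5 each, Cd8a in 4 of the 20 that tested it and Cd4 in 3. Siglech and Ly6c1 were lost in 2 each, and Acta2, Col1a1, Flt1, Tek and Lcn2 in 1 each. Other markers, among them Gfap, Vim, Csf1r and Trem2, kept their calls in every alternative. In bulk tissue, fewer cells of a type and less RNA per cell cannot be told apart, and the part of these markers in the receptor values was not tested.

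Set against the microglial marker sum, the receptors gave unlike ratios. Ltbr measured 11.5 to 13.9 TPM per 1000 TPM of microglial markers in miR-130a libraries and 10.1 to 14.4 in control libraries, and Tnfrsf12a averaged 11.8 ± 1.72 and 10.9 ± 2.48 in miR-130a and control libraries (SD, n = 5 each). For Tnfrsf1a the ratio was 20.9 ± 2.72 in miR-130a libraries and 24.0 ± 3.34 in control libraries, with overlapping ranges. Tnfrsf1b kept groups that did not overlap, at 4.42 to 5.91 in miR-130a libraries and 7.28 to 10.5 in control libraries. The ratio of Tnfrsf14 ranged from 0.912 to 7.8 in miR-130a libraries and from 5.23 to 10.2 in control libraries, and that of Tnfrsf21 from 70.9 to 94.7 and from 25.8 to 65.2 in miR-130a and control libraries. Per 1000 TPM of reactive astrocyte markers, Tnfrsf1b overlapped between the groups (14.6 ± 2.82 in miR-130a libraries and 14.9 ± 0.956 in control libraries), while Ltbr averaged 38.3 ± 10.2 and 21.4 ± 5.0 and Tnfrsf1a 61.0 ± 15.3 and 41.8 ± 4.96 in miR-130a and control libraries. Per 1000 TPM of endothelial markers, Ltbr did not overlap, at 24.3 to 31.0 in miR-130a libraries and 39.9 to 43.1 in control libraries. The order of the group means thus depended on the marker list chosen for Tnfrsf1a, Tnfrsf12a, Ltbr and Tnfrsf21. Tnfrsf1b and Tnfrsf14 had the lower mean in miR-130a libraries against the microglial, astrocyte, reactive astrocyte and endothelial lists alike. The miR-130a mean over the control mean was 0.583, 0.255, 0.98 and 0.359 for Tnfrsf1b, in that order of lists. For Tnfrsf14 it was 0.389, 0.178, 0.547 and 0.24. All these ratios are descriptions with no test.

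**Figure D3:**
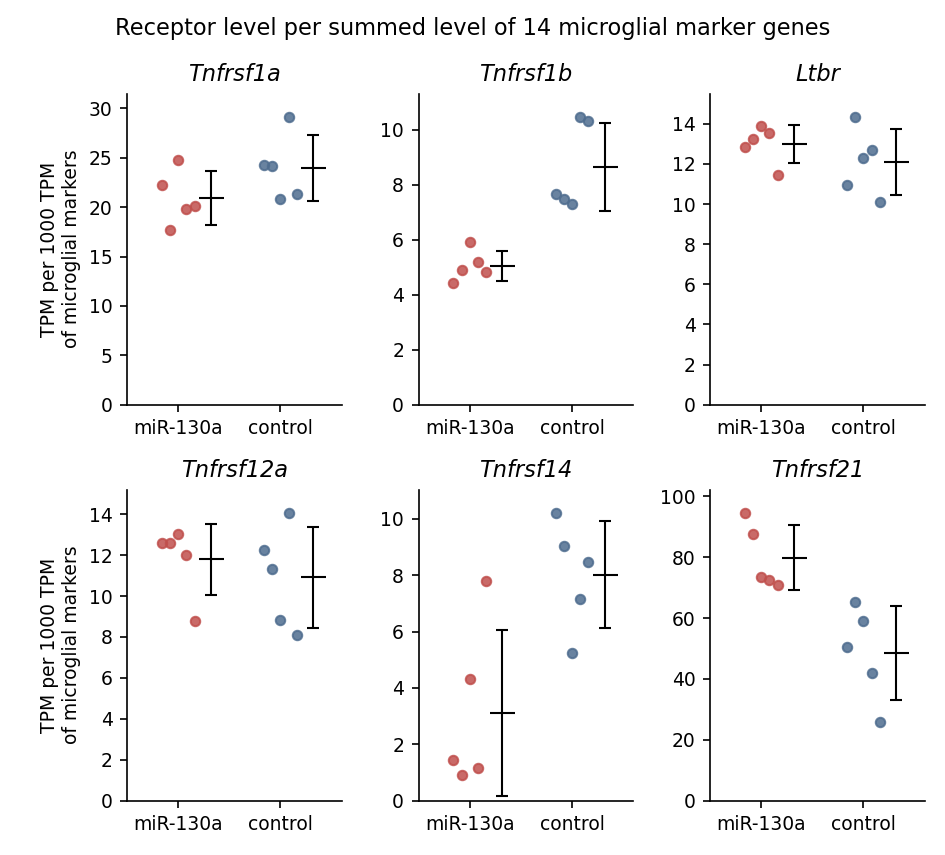
TPM of 6 receptors per 1000 TPM of summed microglial markers in each library, miR-130a on the left and control on the right of each panel, with means and SD (n = 5 each). Ltbr overlaps between the groups, Tnfrsf1b is lower in every miR-130a library and Tnfrsf21 is higher in every one.

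Other genes with profiles close to those of the receptors were sought by the root mean square difference of centred log2 values over the 10 libraries. The nearest to Tnfrsf1a were Lyn, a Src-family kinase of myeloid cells, and Vasp, an actin regulator (0.13 each). Those nearest to Tnfrsf1b were Ctsz, a lysosomal protease (0.12), and Plek (0.13), and those nearest to Ltbr were Abi3 (0.09) and the lysosomal protease gene Lgmn (0.1). Tnfrsf12a lay closest to Arid5a and to the death receptor gene Fas (0.14 each). The nearest genes to Tnfrsf14 lay farther off: Gfap, the filament protein of astrocytes, and Fcgr1, an Fc receptor, were at 0.41 each. This measure is not scaled to the spread of a gene. Tnfrsf14 spanned 3.31 log2 units over the libraries, against 2.44 for Tnfrsf1b and 1.21 for Ltbr.

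The pathway around the receptors was described by 8 lists holding 111 genes, of which 85 were tested, 34 were lower and 1 was higher, where 11.3% of all tested genes were lower and 2.19% higher. The filter on the mean over both groups let in 9 genes that averaged under 1 TPM in 1 group, 5 of them called, and a gene let in by its higher group had to differ. Of the 76 genes at 1 TPM or more in each group, 29 were lower and 1 was higher. The lists were chosen with earlier results of these data known, so these counts are descriptions with no set test. After quantile normalization, 24 of the pathway genes were lower and 4 higher, where 1046 of all 15680 tested genes were lower and 1071 higher. Among the other ligands of the family, 2 of 6 tested fell (median log2 fold change −0.6). Tnfsf12, which encodes TWEAK, the ligand of Tnfrsf12a, averaged 12.8 ± 0.801 TPM in miR-130a libraries and 18.2 ± 1.57 TPM in control libraries (log2 fold change −0.48, limma adjusted p = 0.00585), a call lost after quantile normalization (adjusted p = 0.0611), where the ligand count was 1. Tnfsf10, the death ligand TRAIL, averaged 1.67 ± 0.643 and 4.11 ± 1.47 TPM in miR-130a and control libraries (−0.92, adjusted p = 0.021), a call lost without miR-130a library 13 or control library 7. Ltb, a lymphotoxin subunit, stood at 1.80 ± 1.42 TPM in miR-130a libraries and 7.75 ± 5.74 TPM in control libraries and did not pass (adjusted p = 0.0561). The count for the ligands was 1 without either of those libraries or without control libraries 7 and 9, and 4 without miR-130a library 15. Tnfsf13 did not pass either (adjusted p = 0.59), and Tnfsf4 and Tnfsf15 were listed at 0 in all miR-130a libraries.

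Of the other receptors, 3 of 10 tested fell and none rose (median −0.71); at 1 TPM or more in each group it was 2 of 6 (median −0.36). Fas, the death receptor for Fas ligand, averaged 1.19 ± 0.164 TPM in miR-130a libraries and 3.07 ± 0.771 TPM in control libraries (log2 fold change −0.88, limma adjusted p = 0.00493). Tnfrsf13b, the B cell receptor TACI, averaged 2.3 ± 0.922 TPM in miR-130a libraries and 6.62 ± 3.24 TPM in control libraries (−1.16, adjusted p = 0.0181). Tnfrsf11b, the decoy receptor osteoprotegerin, averaged 0.914 ± 0.196 and 1.89 ± 0.411 TPM in miR-130a and control libraries (−0.59, adjusted p = 0.0313), but that call was lost when any of 6 single libraries was left out. Tnfrsf19 (46.5 ± 4.31 TPM in miR-130a libraries and 57.1 ± 5.42 TPM in control libraries) and Relt did not pass, at adjusted p of 0.0641 and 0.252.

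Release of TNF depends on the sheddase Adam17, and 3 of 8 genes of shedding fell (median −0.44), or 2 of the 7 at 1 TPM or more in each group. Rhbdf2, the rhomboid-like protein that carries Adam17 to the surface of immune cells, averaged 0.598 ± 0.074 TPM in miR-130a libraries and 1.69 ± 0.462 TPM in control libraries (log2 fold change −0.74, limma adjusted p = 0.0122); it passed the filter through the control libraries and dropped below it without control libraries 7 and 9. Frmd8, which stabilizes that complex, averaged 8.04 ± 2.2 TPM in miR-130a libraries and 13.8 ± 2.15 TPM in control libraries (adjusted p = 0.0172), and missed the threshold without control libraries 7 and 9 (adjusted p = 0.0575). Sppl2b, a protease that cleaves the TNF stub within the membrane, passed narrowly (adjusted p = 0.0494) and was lost in 8 of the 10 single-library omissions. The count for shedding was 1 after median-ratio scaling or quantile normalization. Adam17 itself averaged 4.98 ± 1.66 TPM in miR-130a libraries and 7.9 ± 2.06 TPM in control libraries and did not pass (adjusted p = 0.0938). Timp3, an inhibitor of Adam17, and Adam10, a related sheddase, did not pass either (adjusted p = 0.384 and 0.588).

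At the receptor complex, 9 of 26 adaptor, kinase and ubiquitin-enzyme genes fell and none rose (median −0.34). They included subunits of the linear ubiquitin ligase: Rnf31 averaged 9.09 ± 0.276 TPM in miR-130a libraries and 16.0 ± 1.2 TPM in control libraries (log2 fold change −0.75, limma adjusted p = 0.00076), and Rbck1 averaged 41.8 ± 3.43 and 58.8 ± 5.81 TPM in miR-130a and control libraries (−0.48, adjusted p = 0.00712). Tnip1, a ubiquitin-binding restraint on NF-kB, averaged 22.1 ± 2.47 TPM in miR-130a libraries and 33.0 ± 3.48 TPM in control libraries (−0.56, adjusted p = 0.00573). Otulin, the deubiquitinase that removes linear chains, averaged 19.3 ± 1.86 TPM in miR-130a libraries and 25.7 ± 1.58 TPM in control libraries (−0.4, adjusted p = 0.0131), and missed the threshold after median-ratio scaling or quantile normalization, up to an adjusted p of 0.0814. Cyld, another deubiquitinase, averaged 24.4 TPM in miR-130a libraries and 24.9 TPM in control libraries, and neither it nor Traf3 passed. Without control library 7 the count was 5 of 26.

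In the death branch, 5 of 9 genes fell (median −0.59), or 3 of the 7 at 1 TPM or more in each group. Mlkl, the executioner of necroptosis, averaged 0.434 ± 0.245 TPM in miR-130a libraries and 2.35 ± 1.21 TPM in control libraries (log2 fold change −1.17, limma adjusted p = 0.00851). Its kinase Ripk3 was listed at 0, 0.57, 0, 0.46 and 0.22 TPM in miR-130a libraries and at 2.02, 0.77, 1.05, 3.35 and 1.83 TPM in control libraries (adjusted p = 0.016). Both passed the filter through the control libraries; Mlkl was tested in 20 and Ripk3 in 17 of the 21 alternatives, and neither without control libraries 7 and 9. Casp8, the initiator caspase, averaged 2.38 ± 0.332 and 5.52 ± 2.04 TPM in miR-130a and control libraries (−0.89, adjusted p = 0.016). Map3k5, a kinase upstream of stress-activated MAP kinases, averaged 13.6 ± 2.35 TPM in miR-130a libraries and 15.5 ± 2.67 TPM in control libraries and did not pass (adjusted p = 0.485). The count was 2 without control library 7, 1 without control libraries 7 and 9, and 3 without miR-130a library 14 or control library 3.

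Of genes that TNF is known to induce, 12 of 16 tested fell and none rose (median −1.01), and 11 of the 15 at 1 TPM or more in each group. Csf1, the growth factor of microglia, averaged 10.2 ± 1.46 TPM in miR-130a libraries and 24.4 ± 2.89 TPM in control libraries (log2 fold change −1.18, limma adjusted p = 0.000503). Icam1, an adhesion molecule, averaged 3.23 ± 1.15 TPM in miR-130a libraries and 13.9 ± 5.34 TPM in control libraries (−1.79, adjusted p = 0.00182). Relb, a subunit of noncanonical NF-kB, and Nfkbia, the inhibitor that NF-kB itself induces, gave log2 fold changes of −0.95 (adjusted p = 0.003) and −0.76 (adjusted p = 0.00311). The level of Sod2, the mitochondrial superoxide dismutase, was 93.3 ± 8.76 TPM in miR-130a libraries and 98.7 ± 14.1 TPM in control libraries, and neither it nor Junb passed (adjusted p = 0.725 and 0.891). Over 21 alternatives the count for this list ran between 9 and 13.

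The neurotrophin ligands and partners of Ngfr gave 1 higher and no lower gene among 10 tested (median −0.03). Bdnf, the main cortical neurotrophin, averaged 14.4 ± 2.61 TPM in miR-130a libraries and 9.93 ± 1.24 TPM in control libraries (log2 fold change 0.49, limma adjusted p = 0.0288), and missed the threshold when any of 5 single libraries was left out, up to an adjusted p of 0.0781. The libraries were miR-130a 13, 14 and 15 and control 4 and 7, and without any of them the count for this list was 0; it was 2, both higher, without miR-130a library 18. Without control library 9 there were 3 lower and 1 higher, where 2910 of all 15580 tested genes were lower and 503 higher. Without control libraries 7 and 9 there were 2 lower and 1 higher, where 2401 of 15511 tested genes were lower and 366 higher. The 1 higher gene of this list was not Bdnf, which missed the threshold there (limma adjusted p = 0.0711). The count was 2 after median-ratio scaling and 3 after quantile normalization, all of them higher. Over all 15680 tested genes, 866 and 1071 were higher in these 2 settings. Maged1 and Bex3 bind the intracellular part of Ngfr and did not pass; Bex3 averaged 342 ± 34.9 TPM in miR-130a libraries and 279 ± 22.8 TPM in control libraries (adjusted p = 0.0687). Btla and Cd160, the ligands of Tnfrsf14 outside the TNF family, were both under the filter.

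**Figure D4:**
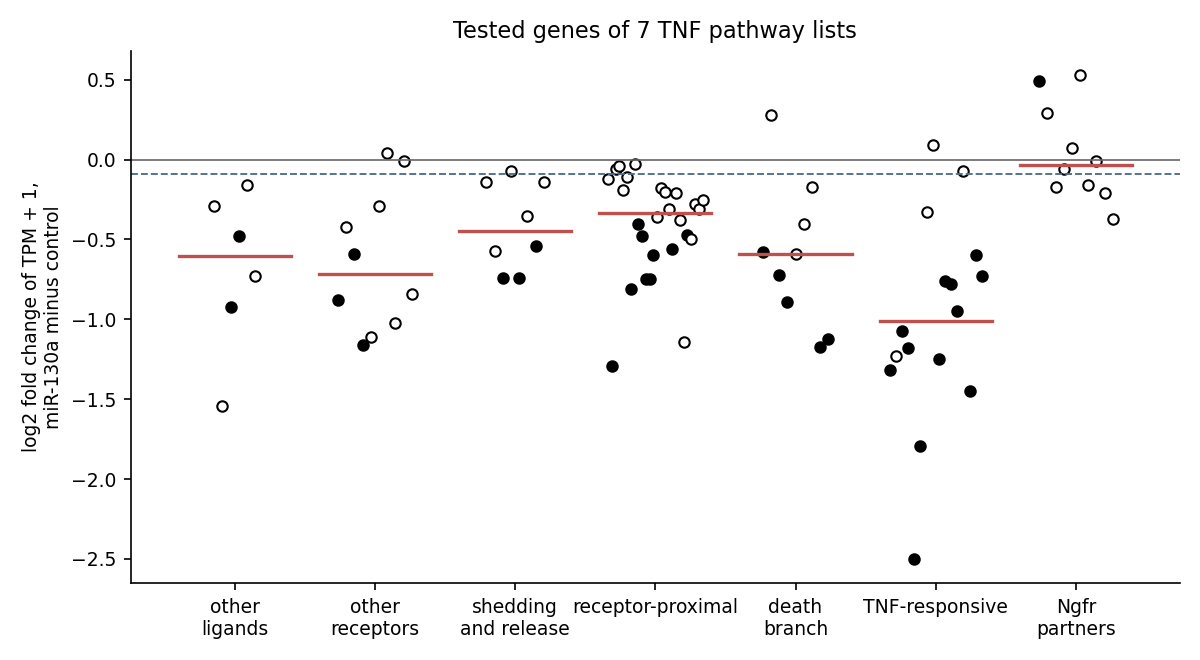
Log2 fold change (miR-130a minus control, limma) of each tested gene in 7 lists around the receptors; filled points passed the test and the red line marks each list's median. The TNF-responsive genes lie lowest, with a median of −1.01, and the partners of Ngfr centre near 0, at −0.03.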

How the data were processed

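Expression was measured by bulk RNA sequencing of 10 mPFC libraries, 5 per group; per the labels' protocols, RNA of integrity number 6.5 or above went into stranded poly(A) libraries. The authors deposited TPM values per gene; the submitters' processing notes name fastp, HISAT2, RSEM, DESeq2 and the build GRCm39, with no version or role given in the sources used here. Because TPM keeps no depth, depth is unknown and no counting error is given. Groups came from sample titles, every sample column was mapped (0 left over), and the authors' group means were not used.

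Values were tested as log2(TPM + 1) with limma 3.58.1 (R 4.3.3; lmFit, eBayes with trend, 2-sided) over genes with a mean of at least 1 TPM, with Benjamini-Hochberg adjustment over all 15680 and a threshold of 0.05. Fold changes on that scale understate those of low genes. Tnf and the pairs of receptors were compared with exact permutation tests over 252 splits. The fit was tested on simulated data. The genes and lists were chosen with earlier results of these data known. Of each list, the up to 4 passing genes of lowest p and the up to 2 most abundant genes that did not pass were named; for each receptor that passed, the 2 nearest profiles; Ngfr, Tnf and the other members were always named. Some genes that this rule names are not reported here. Adam17, Tnfsf4, Tnfsf15, Btla and Cd160 were named after their values were seen. Sequences came from RefSeq (GRCm38.p6) and GENCODE M21 (GRCm38); the files use GRCm39, and no coordinates were converted. UTRs of similar length were 80% to 125% as long. Alternatives changed the pseudocount, filter, scaling, variance model and libraries kept. Tables and plots were made with pandas 2.3.3, numpy 2.4.6 and matplotlib 3.10.9 in Python 3.11.15.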

Additional observations from a re-analysis of the deposited data

How the results depend on the processing

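The 5 receptors that fell kept their calls in all 21 alternatives, with limma adjusted p of at most 0.0172, and the direction of all 9 receptors was the same in each. Log2 fold changes ranged from −1.33 to −1.04 for Tnfrsf1a, −1.85 to −1.24 for Tnfrsf1b, −1.01 to −0.75 for Ltbr, −0.99 to −0.73 for Tnfrsf12a and −2.82 to −1.91 for Tnfrsf14. The count of receptors past the threshold was 5 to 6, the sixth being Tnfrsf21 or Cd40; without control libraries 7 and 9 Tnfrsf21 passed at −0.49 (adjusted p = 0.00829). The difference for Tnf stayed between −2.13 and −0.51 in 17 alternatives. Of 36 pairs of receptors, 18 passed as reported and 9 to 20 when single libraries were left out, the 9 without miR-130a library 13. Without control libraries 7 and 9, 0 passed and 16 had an unadjusted p under 0.05. The lowest exact permutation adjusted p was then 0.0804, where the smallest unadjusted p that the test allowed was 0.0179. The count of pathway genes past the threshold was 35 as reported, 19 with no filter, 21 without control library 7 and 24 to 39 otherwise. Without a filter more genes enter the adjustment. After quantile normalization 24 pathway genes were lower and 4 higher, where 1046 of all tested genes were lower and 1071 higher. Over all genes, 2110 passed as reported, 1302 with no filter and 1228 (without control library 7) to 3413 (without control library 9) when single libraries were left out. No paired analysis was possible because the groups share no replicate numbers. With TPM alone, the precision of low genes such as Tnf, Tnfrsf14 and Cd40 cannot be set from read counts.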
